A study of Mus musculus with 12 samples.

Results

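Prostaglandins are lipid signals made and cleared by a short chain of enzymes and read by a small family of receptors. Described here are 10 genes of that chain, of 46603 genes in the count table, chosen by name for their roles: the cyclooxygenases Ptgs1 and Ptgs2, the terminal synthases Ptges, Ptgis and Ptgds, the inactivating enzyme Hpgd, and the receptors Ptger2, Ptger3, Ptger4 and Ptgir. The choice was made with earlier results of these data known. The RNA of these genes was measured by bulk RNA-seq of whole tissue in 4 groups of 3 libraries: synovium of TNFdARE mice, synovium of WT mice, ileum of TNFdARE mice and ileum of WT mice. TNFdARE mice lack the AU-rich element of the Tnf message, which normally shortens that message's life, and they are used as a model of combined joint and gut inflammation; the WT mice were their littermates. The allele is present in every cell of the animal and is not restricted by a promoter or a Cre. The labels give no age, sex or allele dose and no treatment for any group. They call the replicates biological and do not say which libraries came from one animal, so the p-values measure the spread between these libraries.

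Library totals ran between 14267834 and 16224402 counts. Tnf, the gene the allele alters, stood at 28.3 to 38.4 CPM (counts scaled to a common library total) in TNFdARE synovium, against 1.89 to 2.15 CPM in WT synovium. Its ileal level was 17.2 to 82.7 CPM in TNFdARE libraries, against 1.39 to 2.63 CPM in WT libraries. The tissue labels fitted their markers, with Prg4 (lubricin, of the synovial lining) at 3410 CPM or more in every synovial library and below 1 CPM in every ileal one, and the reverse for Vil1 (villin, of the gut epithelium), at 1490 CPM or more in the ileum and at most 1.24 CPM in the synovium. Synovial libraries also carried skeletal muscle RNA, with 12 markers summing to 2290 to 9430 CPM in TNFdARE and 13200 to 25500 CPM in WT libraries. Replicate 2 of the TNFdARE ileum stood apart: its 7 neutrophil markers summed to 77.4 CPM, against 448 and 250 CPM in replicates 1 and 3 of its group, and its Tnf was the lowest of the 3. It still lay above WT ileum, where these markers summed to 5.28 to 8.66 CPM. Xist was at 827 to 1510 CPM in replicate 3 of every group and below 1 CPM in all other libraries. In bulk tissue, fewer cells of a type and less RNA per cell cannot be told apart.

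As background, cyclooxygenases turn arachidonic acid, freed from membranes by phospholipases, into prostaglandin H2. Ptgs1 is the constitutive form in most tissues, and Ptgs2 is the form that inflammatory signals induce. Ptges then makes prostaglandin E2, Ptgis makes prostacyclin and Ptgds makes prostaglandin D2, while Hpgd oxidises prostaglandins to inactive products. Prostaglandin E2 is read by the EP receptors, of which Ptger2 (EP2) and Ptger4 (EP4) raise cyclic AMP and Ptger3 (EP3) mostly lowers it, and prostacyclin is read by Ptgir (IP), which also raises cyclic AMP. In inflamed joints these lipids contribute to pain and swelling, and in the gut they help to maintain the epithelium.

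The promoter sequences of 4 members are shown: Ptges, Ptger4 and Ptgir, which rose in the synovium, and Ptgs2, which rose in the ileum. That of Ptger2, which also rose in the synovium, is not shown. Each runs over 300 bases, 250 before and 50 from the transcript start on, in the sense of the gene, taken from RefSeq on build GRCm38.p6, in which 9 of the 10 members had an entry. The intervals are chr1:150099781-150100080 (plus strand) for Ptgs2, chr2:30903248-30903547 (minus strand) for Ptges, chr15:5244138-5244437 (minus strand) for Ptger4 and chr7:16906240-16906539 (plus strand) for Ptgir. Capitals mark matches, on either strand, to the motifs searched.
Ptgs2: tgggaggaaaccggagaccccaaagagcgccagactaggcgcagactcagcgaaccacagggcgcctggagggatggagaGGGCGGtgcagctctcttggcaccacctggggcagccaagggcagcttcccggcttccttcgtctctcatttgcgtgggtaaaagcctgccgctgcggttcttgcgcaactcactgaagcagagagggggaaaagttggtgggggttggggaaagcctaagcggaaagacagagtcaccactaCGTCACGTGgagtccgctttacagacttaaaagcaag
Ptges: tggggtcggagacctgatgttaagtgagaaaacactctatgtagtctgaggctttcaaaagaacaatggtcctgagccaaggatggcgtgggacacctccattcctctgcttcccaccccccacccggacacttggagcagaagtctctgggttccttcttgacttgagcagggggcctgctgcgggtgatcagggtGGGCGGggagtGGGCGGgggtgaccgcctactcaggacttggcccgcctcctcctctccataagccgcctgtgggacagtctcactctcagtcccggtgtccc
Ptger4: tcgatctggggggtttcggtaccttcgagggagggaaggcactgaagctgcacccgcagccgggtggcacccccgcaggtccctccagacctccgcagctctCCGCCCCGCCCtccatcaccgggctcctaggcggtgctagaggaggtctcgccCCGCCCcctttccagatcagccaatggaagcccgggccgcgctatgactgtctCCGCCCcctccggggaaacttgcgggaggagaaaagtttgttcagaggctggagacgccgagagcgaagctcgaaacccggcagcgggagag
Ptgir: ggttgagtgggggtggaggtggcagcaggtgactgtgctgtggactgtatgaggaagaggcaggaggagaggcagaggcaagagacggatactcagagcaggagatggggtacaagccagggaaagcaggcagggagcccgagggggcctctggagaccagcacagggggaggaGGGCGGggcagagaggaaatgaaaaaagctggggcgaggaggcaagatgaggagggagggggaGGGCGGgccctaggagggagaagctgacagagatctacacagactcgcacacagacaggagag

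The motifs searched were the TATA box TATAAA, the cyclic AMP response element core TGACG, the E-box CACGTG, the AP-1 site TGANTCA, the GC box GGGCGG and the NF-kB site. Of the 32851 promoters of the table, 13.6% held the TATA box, 20.8% the core, 7.2% the E-box, 7.8% the AP-1 site, 35.7% the GC box and 4.5% the NF-kB site. The Ptgs2 window held a core overlapping an E-box, from 14 to 22 bases downstream of the start, and 1 GC box. GC boxes numbered 2 in the Ptges window, 4 in that of Ptger4, where the pair farthest from the start overlapped by 1 base, and 2 in that of Ptgir. Of the other members with an entry, Ptger3 held 3 GC boxes, Hpgd held 1 GC box and 1 TATA box, Ptgds held 1 AP-1 and 1 NF-kB match, and Ptgs1 and Ptger2 held none of the 6 motifs. These are matches of letters in a window, not sites shown to be bound.

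In the synovium, the prostaglandin E2 synthase Ptges and 3 of the 4 receptors rose in TNFdARE mice, while prostacyclin synthase and the inactivating enzyme fell. Of the 9 members that passed the filter on low counts, 4 were called higher and 2 lower by edgeR's quasi-likelihood test (adjusted p below 0.05), where 13.1% of the 15599 genes tested rose and 10.7% fell (23.8% in either direction). In 6 of the 9, no TNFdARE library overlapped a WT library, 4 higher and 2 lower, against 43.9% of all genes tested. The median log2 fold change of the 9 was 1.01, against 0.003 over all genes tested. The list was chosen with earlier results of these data known. These comparisons with all genes, and those for the ileum, thus describe the list and are no independent test of it. In the ileum, 1 of 9 members rose and none fell, where 4.12% of 15462 genes rose and 1.57% fell (5.68% in either direction). Groups did not overlap for 4 of these 9, 3 higher and 1 lower, against 37.3% of all genes tested, and the median log2 fold change was 0.16, against -0.002 over all genes. The 1 lower, Hpgd, overlapped when scaled by library size alone. The ileal test rests on few calls, and their number moved with single libraries.

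**Figure D1:**
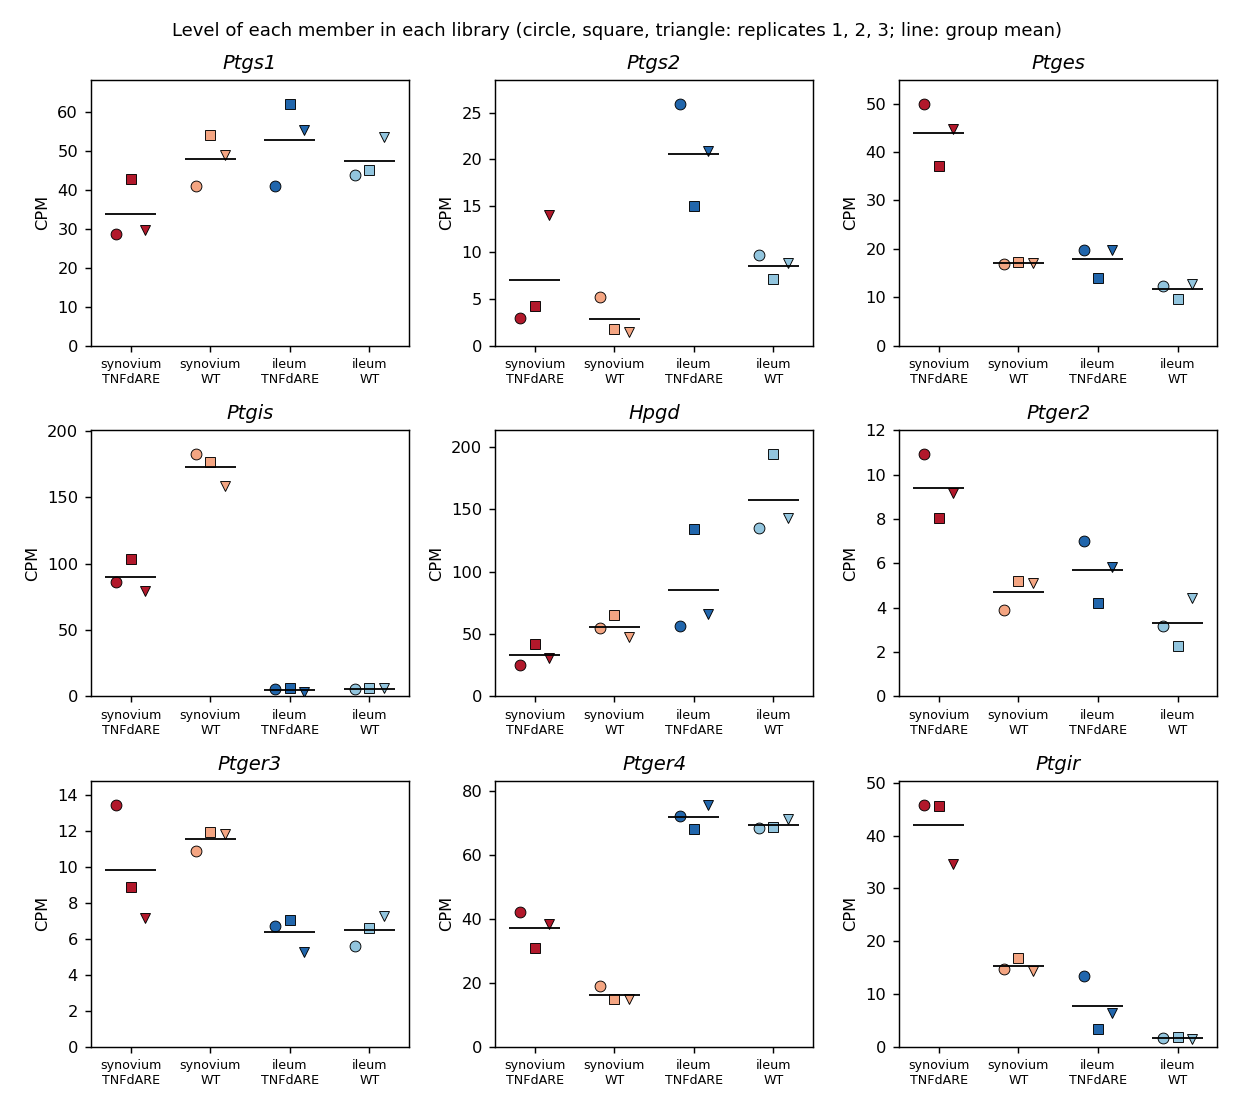
Each panel shows the level of a member in the 12 libraries, in CPM on an axis from 0, with TNFdARE left of WT within each tissue; points are libraries and lines are group means. Ptges, Ptger2, Ptger4 and Ptgir sit higher in all 3 TNFdARE synovial libraries than in any WT one, Ptgis and Hpgd sit lower, and in the synovium Ptgs2 is high in a single TNFdARE library.

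Among the cyclooxygenases, Ptgs2 rose in the inflamed ileum. Ptgs2 (ENSMUSG00000032487, chromosome 1, 150100031 to 150108227, plus strand, GRCm38) had 26.0, 15.0 and 20.9 CPM in the 3 TNFdARE ileal libraries, against 9.70, 7.15 and 8.86 CPM in the WT ones. All 3 TNFdARE values lay above all 3 WT values. The lowest TNFdARE value was that of replicate 2, the library with the fewest neutrophil transcripts of its group, though more than any WT ileal library. The mean was 20.6 ± 5.49 CPM with TNFdARE, against 8.57 ± 1.30 CPM with WT (SD, n = 3 each), a log2 fold change of 1.27 ± 0.23 (SE; adjusted p = 0.0404, edgeR). The call was made in 6 of 13 alternative settings, with log2 fold changes between 1.08 and 1.46 and adjusted p-values between 4.60e-05 and 0.174; leaving out either replicate 1 or replicate 3 of TNFdARE, or any WT library, ended it (adjusted p between 0.0515 and 0.174).

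In the synovium Ptgs2 did not pass the test, and 1 library set its mean. It had 3.00, 4.21 and 14.1 CPM in TNFdARE libraries, from 50, 73 and 243 counts, against 5.26, 1.82 and 1.44 CPM in WT libraries, from 76, 28 and 22 counts. TNFdARE replicate 3 was high, WT replicate 1 lay above TNFdARE replicates 1 and 2, and the groups overlapped. The log2 fold change was 1.36 ± 0.77 (SE; 95% interval -0.54 to 3.26; adjusted p = 0.252), and without TNFdARE replicate 3 it was 0.38. The interval contains the ileal value, and the effect in the synovium minus that in the ileum was 0.061 ± 0.80 (95% interval -1.72 to 1.84; adjusted p = 0.989), so the size of the synovial change was not determined by these libraries.

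Ptgs1 (ENSMUSG00000047250, chromosome 2, 36230426 to 36252272, plus strand) had 28.5, 42.6 and 29.7 CPM in TNFdARE synovium, against 40.9, 53.9 and 48.9 CPM in WT synovium. Replicate 2 was the highest of either group, and TNFdARE replicate 2 lay above WT replicate 1. The log2 fold change was -0.48 ± 0.18 (SE; adjusted p = 0.0999) with no replicate block; with the replicate number as a block it was -0.50 (adjusted p = 0.00983), and without TNFdARE replicate 2 it was -0.69 (adjusted p = 0.0173). It passed in 3 of 13 alternatives, which ran between -0.69 and -0.38 with adjusted p up to 0.260. In the ileum Ptgs1 had 40.8, 62.0 and 55.1 CPM in TNFdARE libraries, against 43.7, 45.0 and 53.4 CPM in WT libraries, and the log2 fold change was 0.16 (95% interval -0.24 to 0.55; adjusted p = 0.556). The effect in the synovium minus that in the ileum was -0.66 ± 0.27 (adjusted p = 0.126; 0.0416 with the replicate block).

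Levels per kilobase divide by the merged length of all annotated exons of a gene, which can differ from that of the transcript expressed. Ranks and ratios between genes depend on these lengths. On this scale Ptgs1 outweighed Ptgs2 in every library. The Ptgs2 level was 0.0891, 0.0837 and 0.402 of the Ptgs1 level in TNFdARE synovium, against 0.109, 0.0287 and 0.0249 in WT synovium. In the ileum the ratio was 0.539, 0.205 and 0.321 in TNFdARE libraries, against 0.188, 0.135 and 0.141 in WT libraries. All 3 TNFdARE ileal ratios lay above the WT ones, while the synovial ratios overlapped.

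Of the terminal synthases, Ptges and Ptgis moved in opposite directions in the synovium. Ptges, the inducible prostaglandin E2 synthase of the membrane (ENSMUSG00000050737, chromosome 2, 30889471 to 30929863, minus strand), had 49.9, 37.1 and 44.8 CPM in TNFdARE synovium, against 16.8, 17.2 and 17.2 CPM in WT synovium. The WT libraries lay within 1 CPM of each other and far below the lowest TNFdARE library. Ptges rose by a log2 fold change of 1.39 ± 0.12 (SE), a 2.63-fold difference (adjusted p = 0.000638, edgeR), and it was called in 13 of 13 alternatives. In the ileum it had 19.7, 14.0 and 19.7 CPM in TNFdARE libraries, against 12.4, 9.71 and 12.7 CPM in WT libraries. The groups did not overlap, with TNFdARE replicate 2 closest to WT. The log2 fold change there was 0.63 ± 0.18 (SE; adjusted p = 0.0810), and 0.62 with the replicate block (adjusted p = 0.0446). It passed in 4 of 13 alternatives. Without TNFdARE replicate 2 it was 0.78 (adjusted p = 0.00745), and with any other library left out it did not pass (0.51 to 0.69, adjusted p between 0.166 and 0.237). The effect in the synovium minus that in the ileum was 0.74 ± 0.22 (adjusted p = 0.0538; 0.0223 with the block), and it passed in 8 of 19 alternatives.

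Ptgis, prostacyclin synthase (ENSMUSG00000017969, chromosome 2, 167191805 to 167240604, minus strand), had 86.2, 103 and 79.5 CPM in TNFdARE synovium, against 182, 177 and 159 CPM in WT synovium. Every TNFdARE library lay below every WT library. It fell by 0.92 on the log2 scale (SE 0.11; adjusted p = 0.00200, edgeR), to 0.530 of the WT level, in 13 of 13 alternatives as well. In the ileum Ptgis was low, at 5.08, 6.27 and 3.23 CPM in TNFdARE libraries, against 5.13, 5.98 and 6.05 CPM in WT libraries, and the groups overlapped (log2 fold change -0.23, 95% interval -0.85 to 0.38, adjusted p = 0.579). The effect in the synovium minus that in the ileum did not pass, at -0.71 ± 0.26 (adjusted p = 0.0987).

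Per kilobase, Ptgis was 2.65, 4.26 and 2.71 times the Ptges level in TNFdARE synovium, against 16.7, 15.7 and 14.2 times in WT synovium. In the ileum it was 0.394, 0.685 and 0.251 of the Ptges level in TNFdARE libraries, against 0.633, 0.944 and 0.732 in WT libraries. The synovial ratios of the genotypes were far apart, and the ileal ones overlapped. Prostacyclin synthase is known from vessel walls, smooth muscle and fibroblasts, and markers of some of these cells moved with it in the synovium. The 7 endothelial markers summed to 577 to 685 CPM in TNFdARE and 767 to 806 CPM in WT synovium, with 5 of 7 falling. The 8 smooth muscle markers summed to 552 to 683 CPM in TNFdARE and 1150 to 1740 CPM in WT synovium, with 4 of 8 falling. The 4 lining markers summed to 3570 to 4320 CPM in TNFdARE and 13800 to 16100 CPM in WT synovium, with all 4 falling, and the 6 adipocyte markers to 485 to 718 CPM and 1140 to 1650 CPM, with all 6 falling. The 8 fibroblast markers overlapped, at 53700 to 57100 CPM in TNFdARE and 43200 to 85300 CPM in WT synovium, with 4 of 8 rising. A lower sum was not particular to these cells. The 12 skeletal muscle markers summed to 2290 to 9430 CPM in TNFdARE and 13200 to 25500 CPM in WT synovium. The 7 cartilage and bone markers summed to 1290 to 1790 CPM and 2060 to 3630 CPM. The mast cell and B cell sums were also lower. The macrophage, tuft cell and epithelial sums were higher, and the neutrophil, epidermal and Schwann cell sums overlapped. Whether any of these cells account for the fall of Ptgis was not tested.

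Ptgds, the lipocalin-type prostaglandin D2 synthase (ENSMUSG00000015090, chromosome 2, 25466709 to 25470046, minus strand), was at the limit of detection. It had 1, 0 and 0 counts in TNFdARE synovium, 1, 1 and 0 counts in WT synovium, 0 counts in all 3 TNFdARE ileal libraries, and 2, 0 and 1 counts in WT ileum. It passed no filter on low counts and was tested in no comparison; every library was at or below the 3 counts that a count of 0 allows.

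Hpgd, 15-hydroxyprostaglandin dehydrogenase (ENSMUSG00000031613, chromosome 8, 56294585 to 56321043, plus strand), was, as scaled here, lower in every TNFdARE library than in the WT libraries of its tissue, and passed the test in the synovium. It had 25.4, 42.1 and 30.7 CPM in TNFdARE synovium, against 54.9, 65.3 and 47.4 CPM in WT synovium. The groups did not overlap, and replicate 2 was the highest library of each. Hpgd fell by 0.74 on the log2 scale (SE 0.21; adjusted p = 0.0444, edgeR), and the adjusted p ran between 0.00300 and 0.137 over the alternatives, 5 of 13 of which passed; only without TNFdARE replicate 2, of the libraries left out in turn, did the call stand. In the ileum, whose epithelium is a known site of Hpgd, it had 56.1, 134 and 65.7 CPM in TNFdARE libraries, against 135, 194 and 143 CPM in WT libraries. TNFdARE replicate 2 lay just below the lowest WT library, replicate 1, and this order rests on the scaling factors. TNFdARE replicate 2 had 1901 of 14371302 counts, a larger share than the 1942 of 15700665 counts in WT replicate 1. The log2 fold change was -0.88 ± 0.36 (SE; adjusted p = 0.162), and -0.97 with the replicate block (adjusted p = 0.0390). It passed in 3 of 13 alternatives. It was -1.36 without TNFdARE replicate 2 (adjusted p = 0.00353) and -0.65 without TNFdARE replicate 1 (adjusted p = 0.368), and with any library but TNFdARE replicate 2 left out it did not pass. The 7 epithelial markers summed to 11300, 17900 and 14100 CPM in TNFdARE replicates 1 to 3, against 22700 to 24200 CPM in WT ileum, so replicate 2 was also the closest to WT in epithelial RNA; their part in the Hpgd values was not tested.

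The level of Ptges relative to Hpgd, per kilobase, was higher in TNFdARE libraries at both sites. It was 0.843, 0.378 and 0.625 in TNFdARE synovium, against 0.131, 0.113 and 0.155 in WT synovium. In the ileum it was 0.151, 0.0448 and 0.129 in TNFdARE libraries, against 0.0395, 0.0214 and 0.0378 in WT libraries. Neither tissue's groups overlapped, and in both the lowest TNFdARE ratio was that of replicate 2.

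**Figure D2:**
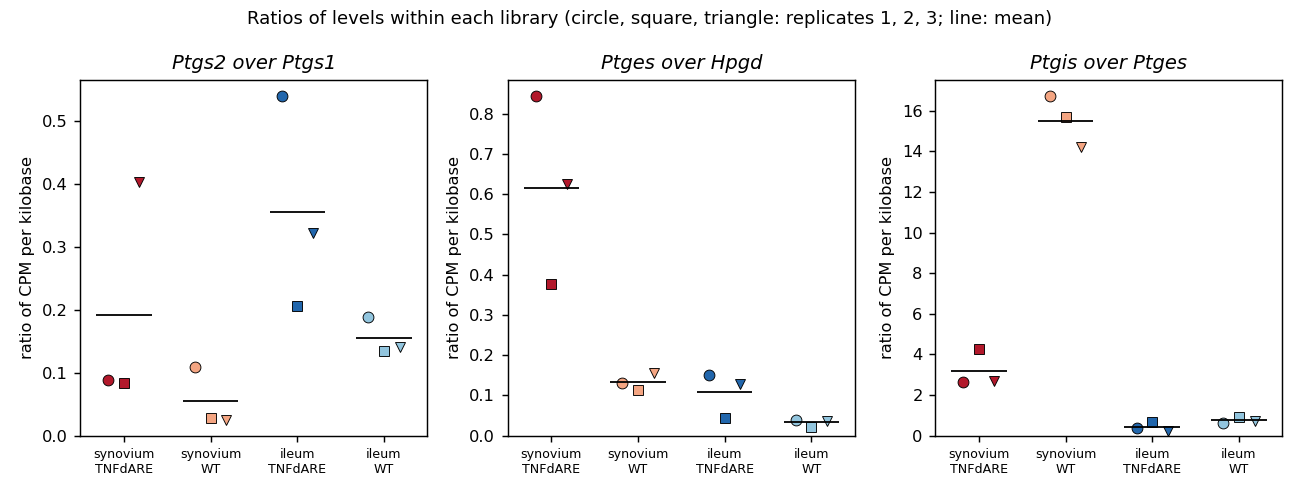
Ratios between members, each from CPM per kilobase of exon on an axis from 0, for every library, with TNFdARE left of WT within each tissue. The ratio of Ptges to Hpgd is higher in all TNFdARE libraries than in the WT libraries of the same tissue, and the ratio of Ptgis to Ptges is 2.65 to 4.26 in TNFdARE synovium against 14.2 to 16.7 in WT synovium.

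Of the receptors, those that raise cyclic AMP rose in the synovium, and Ptger3 did not pass. Ptgir, the prostacyclin receptor (ENSMUSG00000043017, chromosome 7, 16906490 to 16910905, plus strand), had 45.8, 45.6 and 34.6 CPM in TNFdARE synovium, against 14.7, 16.8 and 14.4 CPM in WT synovium. The lowest TNFdARE library was above the highest WT library by more than the whole range of either group. It rose by a log2 fold change of 1.48 ± 0.13 (SE), 2.80-fold (adjusted p = 0.000746, edgeR), and did so in 13 of 13 alternatives. Ptgir, which reads prostacyclin, thus rose in the tissue in which its ligand's synthase Ptgis fell.

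In the ileum Ptgir had 13.4, 3.45 and 6.39 CPM in TNFdARE libraries, against 1.73, 1.75 and 1.48 CPM in WT libraries. The groups did not overlap, and the TNFdARE libraries spread widely, with replicate 1 high and replicate 2 low. The log2 fold change was 2.23 ± 0.51 (SE; 95% interval 1.00 to 3.46), with an adjusted p of 0.0535 that missed the threshold. It passed in 4 of 13 alternatives (adjusted p between 0.000393 and 0.186). Without TNFdARE replicate 2 it was 2.59 (adjusted p = 0.00181), without TNFdARE replicate 1 it was 1.58 (adjusted p = 0.0574), and it passed with no other library left out. The synovial minus the ileal effect was -0.77 ± 0.54 (adjusted p = 0.377). The order of the 3 TNFdARE ileal libraries was also that of their 8 macrophage markers, which summed to 1560, 604 and 1080 CPM. In WT ileum these summed to 225 to 290 CPM, and 4 of 8 rose. The order was not particular to macrophages. The 7 neutrophil markers summed to 448, 77.4 and 250 CPM in the same libraries, the 7 B cell markers to 209, 13.4 and 54.6 CPM, and Tnf was at 82.7, 17.2 and 47.3 CPM. In the synovium the macrophage markers summed to 2130 to 2570 CPM in TNFdARE and 1000 to 1130 CPM in WT libraries, with 6 of 8 rising. By replicate the TNFdARE sums there were 2570, 2130 and 2340 CPM, which is not the order of Ptgir. The part of these cells in the receptor values was not tested.

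Ptger4 (ENSMUSG00000039942, chromosome 15, 5206661 to 5244187, minus strand), the EP4 receptor, rose in the synovium and differed between the tissues in its response. It had 42.2, 30.8 and 38.2 CPM in TNFdARE synovium, against 19.1, 15.0 and 14.9 CPM in WT synovium, without overlap. Ptger4 rose there by a log2 fold change of 1.21 ± 0.15 (SE; adjusted p = 0.00224, edgeR), and in 13 of 13 alternatives. Ileal levels were 72.2, 67.9 and 75.6 CPM in TNFdARE libraries, against 68.3, 68.8 and 71.1 CPM in WT libraries. These 6 values lay close together and overlapped, and the log2 fold change was 0.0555 (95% interval -0.11 to 0.22; adjusted p = 0.616). The effect in the synovium minus that in the ileum was 1.13 ± 0.17 (SE; 95% interval 0.75 to 1.52; adjusted p = 0.00419), and it passed in 19 of 19 alternatives. Of the 9 members tested for such a difference, Ptger4 was the 1 that passed, where 5.28% of 16964 genes had a higher effect in the synovium and 6.8% a lower one (12.1% in either direction). The exons of Ptger4 share 1097 bases with Ttc33 and Gm15937 on the other strand, and the sources used here do not give the strand setting of the counting. Such an overlap is 390 bases for Ptger2, 156 for Ptgis and 148 for Ptgs1. The Ptger2 partner Gm17173 averaged 1.23 CPM in TNFdARE and 0.814 CPM in WT synovium (log2 fold change 0.61, adjusted p = 0.35, edgeR). No level was available for its other partner, Gm49364. The Ptgis partner 1110018N20Rik averaged 0.858 CPM in TNFdARE and 1.60 CPM in WT synovium (log2 fold change -0.86, adjusted p = 0.0937, edgeR). It averaged 1.25 CPM in TNFdARE ileum, against 1.29 CPM in WT ileum, where Ptgis itself is low. Ttc33 averaged 22.1 CPM in TNFdARE and 22.6 CPM in WT synovium (log2 fold change -0.005; adjusted p = 0.981), and 20.2 CPM in TNFdARE ileum, against 17.5 CPM in WT ileum (log2 fold change 0.21; adjusted p = 0.298).

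Ptger2, the EP2 receptor (ENSMUSG00000037759, chromosome 14, 44988195 to 45003820, plus strand), had 10.9, 8.06 and 9.15 CPM in TNFdARE synovium, against 3.88, 5.21 and 5.09 CPM in WT synovium. The groups did not overlap, and Ptger2 rose by a log2 fold change of 1.01 ± 0.19 (SE; adjusted p = 0.00982, edgeR), again in 13 of 13 alternatives. Its ileal levels were 6.98, 4.22 and 5.83 CPM in TNFdARE libraries, against 3.19, 2.26 and 4.43 CPM in WT libraries. TNFdARE replicate 2 lay below WT replicate 3, and the log2 fold change was 0.79 ± 0.31 (adjusted p = 0.142). It passed in 1 of 13 alternatives, without TNFdARE replicate 2 (0.97, adjusted p = 0.0395), and the others gave values between 0.58 and 1.06 with adjusted p up to 0.311. The synovial minus the ileal effect was 0.20 (95% interval -0.62 to 1.02; adjusted p = 0.775).

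Ptger3, the EP3 receptor (ENSMUSG00000040016, chromosome 3, 157566892 to 157645888, plus strand), had 13.4, 8.87 and 7.13 CPM in TNFdARE synovium, against 10.9, 11.9 and 11.8 CPM in WT synovium. The TNFdARE libraries lay on both sides of the WT ones (log2 fold change -0.21, 95% interval -0.73 to 0.32, adjusted p = 0.537). Its ileal levels were 6.73, 7.04 and 5.27 CPM in TNFdARE libraries, against 5.61, 6.57 and 7.25 CPM in WT libraries (log2 fold change -0.024, 95% interval -0.46 to 0.41, adjusted p = 0.941).

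**Figure D3:**
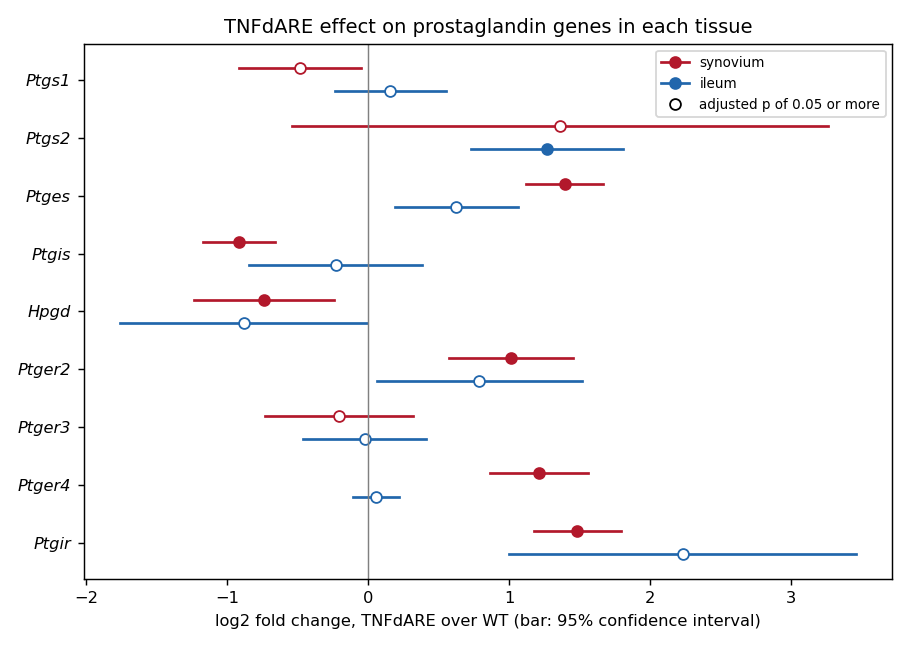
Log2 fold changes of TNFdARE against WT for the 9 members tested, in synovium and ileum, with bars for 95% intervals; filled points passed an adjusted p under 0.05. In the synovium Ptges, Ptgir, Ptger4 and Ptger2 lie above 1 and pass, Ptgis and Hpgd pass below 0, and Ptgs2 has the widest interval, -0.54 to 3.26.

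The members ranked differently in the tissues when levels were taken per kilobase of exon. In TNFdARE synovium the order of mean levels was Ptgis at 34.9 CPM per kilobase, Hpgd at 19.4, Ptgir at 12.6, Ptges at 11.2, Ptgs1 at 8.65, Ptger4 at 5.58, Ptger2 at 1.81, Ptger3 at 1.72 and Ptgs2 at 1.55. Ptgir overlapped with Ptges, Ptges with Ptgs1, and the last 3 with each other. In WT synovium it was Ptgis at 67.2, Hpgd at 33.2, Ptgs1 at 12.3, Ptgir at 4.59, Ptges at 4.34, Ptger4 at 2.46, Ptger3 at 2.03, Ptger2 at 0.910 and Ptgs2 at 0.620 CPM per kilobase. Here Ptgir overlapped with Ptges and Ptger2 with Ptgs2, and the other neighbours were apart. Ptgs1 thus stood above Ptgir and Ptges in WT synovium and below them in TNFdARE synovium, where its range overlapped those of both.

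In the ileum Hpgd led in both genotypes. The order in TNFdARE ileum was Hpgd at 50.6 CPM per kilobase, Ptgs1 at 13.6, Ptger4 at 10.8, Ptges at 4.54, Ptgs2 at 4.50, Ptgir at 2.32, Ptgis at 1.89, Ptger3 at 1.12 and Ptger2 at 1.09. Ptgs1 overlapped with Ptger4, the members from Ptges to Ptgis each with the next, and Ptger3 with Ptger2. In WT ileum it was Hpgd at 93.5, Ptgs1 at 12.2, Ptger4 at 10.4, Ptges at 2.95, Ptgis at 2.23, Ptgs2 at 1.87, Ptger3 at 1.14, Ptger2 at 0.634 and Ptgir at 0.496 CPM per kilobase. Ptgis overlapped with Ptgs2 and Ptger2 with Ptgir, and the other neighbours were apart. Ptgir was the lowest of the 9 in WT ileum.

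**Figure D4:**
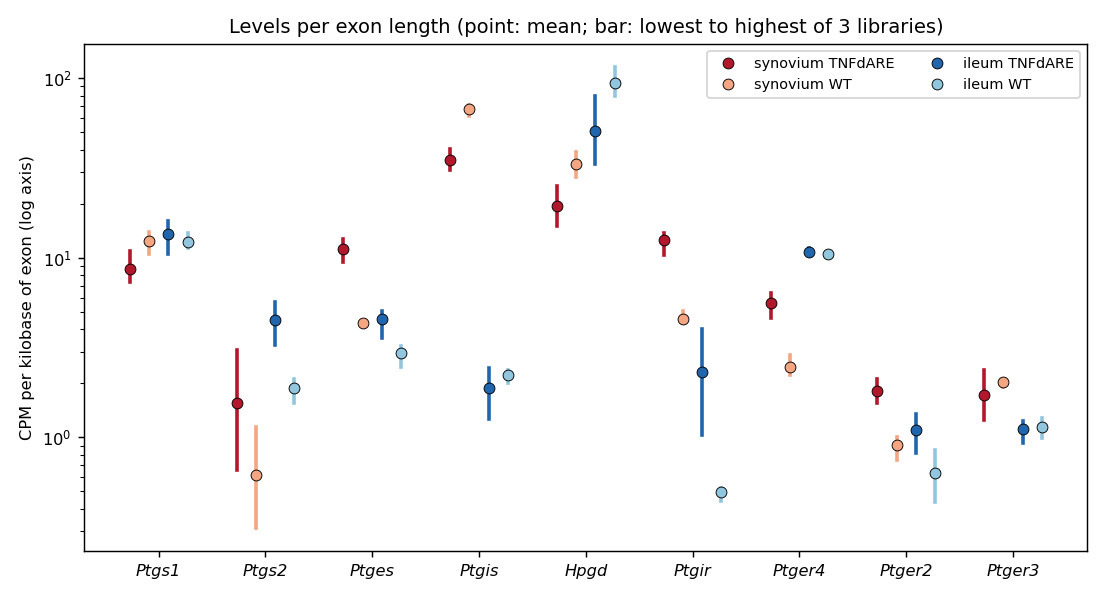
Level of each member in CPM per kilobase of exon, on a log axis, in the 4 groups; points are means and bars run over the lowest to the highest of 3 libraries. Ptgis leads in the synovium, at 67.2 CPM per kilobase in WT, and Hpgd leads in the ileum, at 93.5 CPM per kilobase in WT.

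Synovium and ileum differed in most members. In TNFdARE mice 5 members were higher and 4 lower in synovium than in ileum, so that 9 of 9 passed, where 31.6% of the 16964 genes tested were higher and 35% lower (66.7% in either direction). In WT mice 4 were higher and 3 lower, where 38.2% of genes were higher and 36% lower (74.2% in either direction), so the members' share was not far from that of all genes there. The largest tissue difference of the 9, in both genotypes, was that of Ptgis, with a log2 fold change of 4.20 ± 0.20 (SE) in TNFdARE (18.4-fold; adjusted p = 1.25e-08) and 4.91 ± 0.20 in WT mice (30.2-fold; adjusted p = 3.49e-09). Ptgir was next, at 2.43 ± 0.37 in TNFdARE and 3.20 ± 0.42 in WT mice. Ptger4 was lower in synovium than in ileum, by -0.96 ± 0.12 in TNFdARE and -2.09 ± 0.13 in WT mice. Hpgd was lower in synovium too, by -1.38 ± 0.32 in TNFdARE and -1.49 ± 0.32 in WT mice, as was Ptgs2, by -1.54 ± 0.57 (adjusted p = 0.0338) and -1.60 ± 0.61 (adjusted p = 0.0344; 0.0641 with the replicate block). Ptges was higher in synovium, by 1.30 ± 0.16 in TNFdARE and 0.56 ± 0.16 in WT mice, and Ptger3 by 0.63 ± 0.22 (adjusted p = 0.0260; 0.0508 with the replicate block) and 0.83 ± 0.22. Ptger2 was higher in synovium by 0.72 ± 0.26 in TNFdARE mice and did not pass in WT mice (0.52, adjusted p = 0.102), and Ptgs1 was lower by -0.65 ± 0.19 in TNFdARE mice and did not pass in WT mice (0.017, adjusted p = 0.942). Single libraries carried 5 of these calls. In TNFdARE mice Ptgs1 did not pass without ileal replicate 2 (-0.44, adjusted p = 0.0779), and Ptger3 did not pass without ileal replicate 3 (0.51, adjusted p = 0.0967) or synovial replicate 1 (0.34, adjusted p = 0.132). Ptger2 did not pass there without ileal replicate 2 or 3 or synovial replicate 1 or 3 (0.60 to 0.74, adjusted p between 0.0519 and 0.0938). Ptgs2 did not pass in TNFdARE mice without ileal TNFdARE replicate 1 or 3, ileal WT replicate 1 or 3, or synovial TNFdARE replicate 1 or 2 (-1.53 to -1.17, adjusted p between 0.0511 and 0.113), nor in WT mice without ileal replicate 1 or 3 or synovial replicate 2 or 3 (-1.60 to -1.27, adjusted p between 0.0615 and 0.114). These are log2 differences between whole tissues of different cell makeup.

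The wider prostanoid pathway was represented by 26 further genes: phospholipases A2, other synthases, other receptors, transporters and reductases. In the synovium 6 of the 21 tested rose and none fell, where 13.1% of all genes tested rose and 10.7% fell. Their median log2 fold change was 0.19, against 0.003 over all genes. The further genes too were chosen with earlier results of these data known. Of the phospholipases, Pla2g2d, a secreted form, rose by 1.72 ± 0.38 (SE; adjusted p = 0.0202, edgeR), with 12.1 ± 4.79 CPM in TNFdARE and 3.75 ± 1.19 CPM in WT synovium (SD, n = 3 each). Of the synthases, Ptges3, a cytosolic prostaglandin E synthase that is also an HSP90 co-chaperone, rose by 0.47 ± 0.13 (adjusted p = 0.0414), and Tbxas1, thromboxane synthase, by 0.41 ± 0.12 (adjusted p = 0.0435). Ptgfr, the prostaglandin F receptor, rose by 0.57 ± 0.17 (adjusted p = 0.0461). Abcc4, an exporter of prostaglandins, averaged 43.2 ± 3.08 CPM in TNFdARE and 27.2 ± 3.13 CPM in WT synovium and rose by 0.70 ± 0.11 (adjusted p = 0.00500). Ptgr1, a reductase of prostaglandin metabolites, averaged 21.7 ± 2.60 CPM in TNFdARE and 11.4 ± 2.12 CPM in WT synovium and rose by 0.96 ± 0.17 (adjusted p = 0.00745, edgeR). Abcc4 and Ptgr1 passed in 13 of 13 alternatives. Of the others, Pla2g2d did not pass without TNFdARE replicate 3 or WT replicate 2 or 3 (adjusted p between 0.0527 and 0.0721). Ptges3 and Ptgfr each lost the call when any library but TNFdARE replicate 2 was left out (adjusted p between 0.0729 and 0.141), and Tbxas1 lost it when any library but WT replicate 2 was left out (adjusted p between 0.0603 and 0.130). With all 12 libraries in one edgeR model, Tbxas1 (0.39, adjusted p = 0.407) and Ptgfr (0.54, adjusted p = 0.0672) did not pass either. Ptgfr also did not pass with limma-voom (0.54, adjusted p = 0.0679).

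In the ileum 3 of the 23 tested rose and none fell, where 4.12% of all genes tested rose and 1.57% fell. Their median log2 fold change was -0.038, against -0.002 over all genes. Pla2g2d averaged 44.1 ± 20.9 CPM with TNFdARE, against 6.26 ± 2.87 CPM with WT, and rose by 2.82 ± 0.52 on the log2 scale (adjusted p = 0.0449, edgeR). Tbxas1 averaged 21.7 ± 11.1 CPM in ileal TNFdARE libraries and 5.44 ± 0.871 CPM in ileal WT libraries and rose by 2.00 ± 0.41 (adjusted p = 0.0482). Hpgds, the hematopoietic prostaglandin D synthase, averaged 25.2 ± 3.79 CPM with TNFdARE, against 10.8 ± 1.25 CPM with WT, and rose by 1.23 ± 0.15 (adjusted p = 0.0389). Leaving out TNFdARE replicate 3, or any WT replicate, ended each of these 3 calls (adjusted p between 0.150 and 0.178), and so did limma-voom (adjusted p between 0.0578 and 0.0890). Leaving out TNFdARE replicate 1, or using no filter on low counts, ended those of Pla2g2d (adjusted p = 0.0802 and 0.0917) and Tbxas1 (adjusted p = 0.0562 and 0.0748). Hpgds, unlike Ptgds, was thus well detected, at 33.6 ± 2.65 CPM in TNFdARE and 28.0 ± 1.44 CPM in WT synovium.

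The response of 3 of the 24 further genes differed between the tissues, 1 higher and 2 lower in the synovium, a share close to the 12.1% of all 16964 genes tested (5.28% higher, 6.8% lower). Ptgr1 had a higher effect in the synovium than in the ileum, by 1.21 ± 0.22 on the log2 scale (adjusted p = 0.00834, edgeR); in the ileum it averaged 18.3 ± 2.41 CPM in TNFdARE and 22.2 ± 2.14 CPM in WT libraries. Hpgds and Tbxas1 had a lower effect in the synovium, by -0.96 ± 0.18 (adjusted p = 0.00889) and -1.61 ± 0.45 (adjusted p = 0.0421). The Tbxas1 difference did not pass with the replicate number blocked across tissues (adjusted p = 0.0807), nor when any library but replicate 2 of the TNFdARE ileum was left out (adjusted p between 0.0577 and 0.0944). Between synovium and ileum, 6 of the 24 were higher and 12 lower in TNFdARE mice, where 31.6% of all genes were higher and 35% lower. In WT mice 8 were higher and 13 lower, where 38.2% of all genes were higher and 36% lower.

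**Figure D5:**
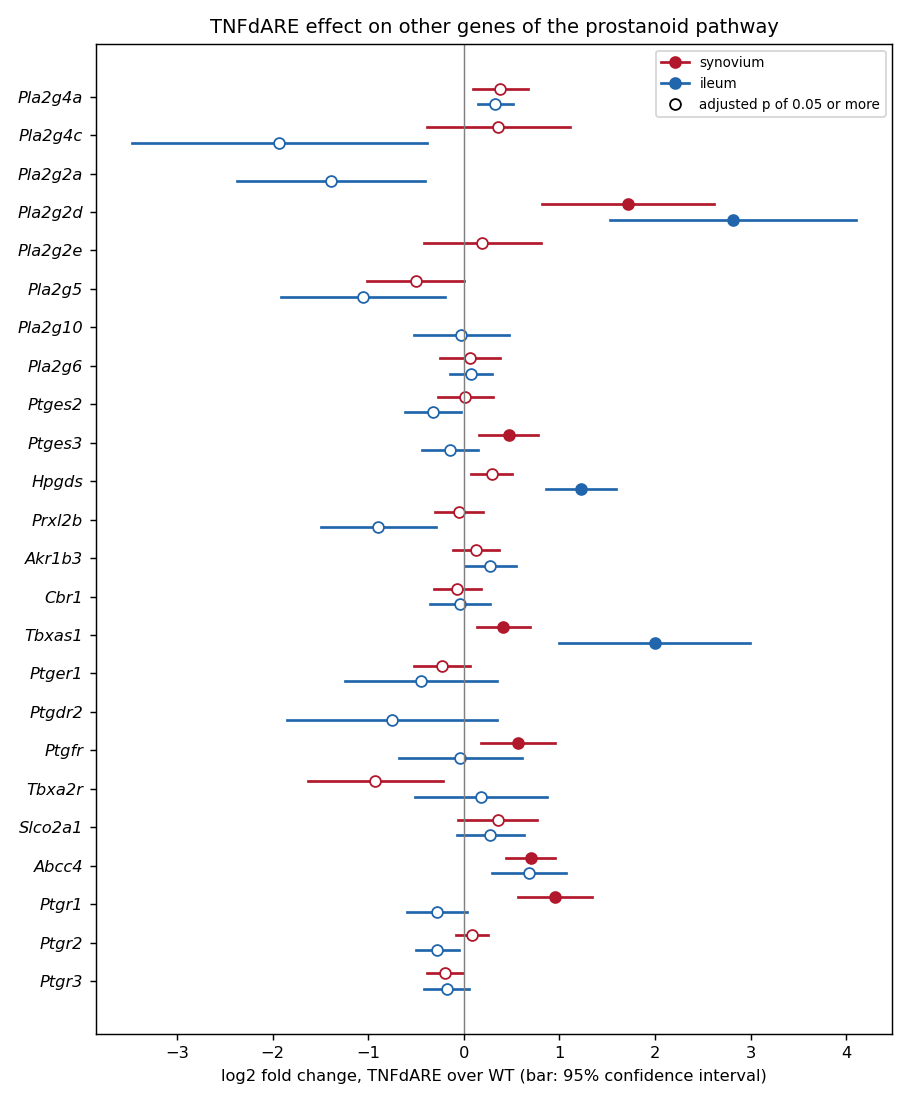
Log2 fold changes of TNFdARE against WT for the further genes of the prostanoid pathway, in synovium and ileum, with bars for 95% intervals; filled points passed an adjusted p under 0.05. In the synovium 6 genes pass, all above 0, and in the ileum 3 pass, all above 0.

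The genes nearest to Ptgs2 and Ptgis in pattern were found among 13543 genes over the 12 libraries, by the root mean square difference of log2 CPM after centring each gene on its own mean. Ptgs2, whose own root mean square deviation was 1.17, was nearest to Ctla4, at 0.484, then Mvd at 0.587, Prdm1 at 0.589, Fdps at 0.604 and Ighv1-50 at 0.607. Ptgis, whose own deviation was 2.26, was nearest to Itga10, at 0.193, then Ebf3 at 0.197, Pth1r at 0.232, Gldn at 0.235 and Irx5 at 0.242. Relative to each gene's own deviation, the neighbours of Ptgis were much closer than those of Ptgs2. The Ptgis pattern, however, was mostly its gap between synovium and ileum, a log2 fold change of 4.20 in TNFdARE and 4.91 in WT mice. Genes with a similar tissue gap come out near it by this measure, so the closeness does not show shared regulation.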

How the data were processed

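Whole-tissue RNA of 12 samples was sequenced. Per the labels, total RNA came from the RNeasy Micro kit, and a stranded poly-A kit (TruSeq) and single NovaSeq reads of 100 cycles were used. Tools named in the submitters' processing notes are cutadapt 1.15 and Bowtie2 2.3.3.1, on build GRCm38. How reads were assigned to genes (tool, strand setting, annotation) is not given in the sources used here. Per the file header, the table the authors deposited holds raw counts by Ensembl gene, with 98.7% of identifiers matched to a symbol; 1001972 further rows were empty. A deposited FPKM table was not used.

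Counts were tested with edgeR 4.0.16 in R 4.3.3 (filterByExpr, TMM factors, robust quasi-likelihood F test, Benjamini-Hochberg adjustment over all genes tested, threshold 0.05). Each tissue was fitted by itself for TNFdARE against WT, and all 4 groups in one model for the tissue contrasts and the difference of effects. SE is the size of the log2 fold change divided by the square root of F. Printed CPM use TMM factors over the 12 libraries, and levels per kilobase use the merged length of all exons of a gene in GENCODE M21. Alternatives were DESeq2 1.42.0, limma-voom (limma 3.58.1), other scaling factors, no filter, one model for all libraries, the replicate number as a block, and each library left out. No pair of libraries of a group agreed within sampling noise. Deviations of same-numbered TNFdARE and WT libraries correlated within each tissue (r between 0.168 and 0.485 over 10800 genes). The labels do not say what a number marks, so the main fits used no block. The number entered as a block only in the alternatives. The fits were also run on simulated data, whose outcome is not given here and lends the calls no support. Detection limits cover counting error only. All members are named. Of the 26 further pathway genes, those that passed for TNFdARE against WT or for the difference of effects are named. Further genes that passed only between the tissues were counted and mostly not named. For Ptgs2 and Ptgis, the 5 genes nearest in pattern are named (mean log2 CPM of at least 1, pseudocount 0.5). The members and gene lists were chosen with earlier results of these data known.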

Additional observations from a re-analysis of the deposited data

Results flagged for a closer look

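The response of Ptger4 differed between the tissues, in the test of the difference itself: the TNFdARE effect in the synovium minus that in the ileum was 1.13 on the log2 scale (SE 0.17; adjusted p = 0.00419, edgeR). Ptger4 averaged 37.1 ± 5.78 CPM in TNFdARE and 16.3 ± 2.42 CPM in WT synovium, and 71.9 ± 3.83 CPM in TNFdARE ileum, against 69.4 ± 1.46 CPM in WT ileum (SD, n = 3 each). The value ran between 1.03 and 1.33 over 19 alternatives, with adjusted p-values between 5.59e-08 and 0.0174.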

How the results depend on the processing

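The ileal comparison depended most on the processing. Its 1 member and 879 genes called became 2 and 2722 with all 12 libraries in one model, 2 and 1379 with library size alone, 4 and 2715 with DESeq2, and 3 members with the replicate number as a block; limma-voom called 0 members and 0 genes (5 and 4649 at an unadjusted p under 0.05). Leaving out single libraries gave 0 to 5 members and 0 to 4633 genes; the highest counts came without TNFdARE replicate 2, and without WT replicate 1, 2 or 3 no gene was called (3550, 3533 and 3332 at an unadjusted p under 0.05). The cause was not tested. Library size alone moved the median of all genes by 0.107 in the ileum and 0.145 in the WT tissue contrast, and raised the share of ileal calls that rose to 88.3%, against 72.5% with TMM factors. For the difference of effects that share was 31.2% with library size alone, against 43.7%. In the synovium, leaving out single libraries gave 5 to 7 members and 2141 to 2927 genes, against 6 and 3713 with all libraries. For the difference of effects, the 1 member and 2050 genes became 2 members with RLE factors, 2 members and 3193 genes with DESeq2, 3 members with the replicate block within tissues, and 2 members and 1102 genes with the block across tissues; single libraries left out gave 1 to 3 members and 1015 to 3506 genes. Beyond the calls named beside their results, the replicate block changed no other call of a member or a named gene, apart from Ptgr2 in the TNFdARE tissue contrast (-0.25, adjusted p = 0.0510). Signs turned only among values that never passed. Ptger3 in the ileum was 0.083 with library size alone and -0.12 to 0.093 with single libraries left out. The Ptgs2 difference of effects was -0.0038 with limma-voom, -0.066 and -0.033 with the block within and across tissues, and -0.91 to 0.93 with libraries left out. The Hpgd difference of effects was -0.11 to 0.69 with libraries left out. Ptgs1 between WT tissues was -0.0092 with RLE factors, -0.0093 with DESeq2 and -0.075 to 0.10 with libraries left out. Depth left Ptgds untested, and the lowest values of Ptgir in WT ileum and Ptgs2 in WT synovium rested on 21 and 22 counts in a library.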
